A study of Mus musculus with 16 samples.

Results

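The genes described here are 9 serotonin receptors (Htr1a, Htr1b, Htr1f, Htr2a, Htr2c, Htr3a, Htr4, Htr6 and Htr7) and the serotonin transporter Slc6a4. They were picked by gene name from the deposited expression table, in which each of the 10 names occurred once among 36930 entries. RNAseq was done on the brain cortex of 16 C57BL6 pups of both sexes at P7, with 8 pups of each genotype. In the Avil-ChR2 genotype, Cre recombinase made from the advillin (Avil) promoter switches on a floxed channelrhodopsin-2 fused to td-Tomato, so that blue light opens a cation channel in sensory neurons of the periphery. ChR2-flfl litter mates carry the floxed channelrhodopsin-2 without Cre and do not express it. All 16 pups spent 1 h per day in blue light from P1 to P5. Litters were not recorded in the sources used here. The paper assumes that the light reached sensory nerve terminals through the skin and did not activate neurons of the cortex directly. The comparison asks whether this early-life nociceptive input went along with a different expression of the serotonin receptors in the cortex. Since all 16 pups were lit, the light-evoked input and the genotype itself cannot be told apart.

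Serotonin reaches the cortex through axons of raphe neurons in the brain stem, and Slc6a4 takes it up again. The Htr1 receptors couple to inhibitory Gi/o proteins and dampen excitability or transmitter release, whereas the Htr2 receptors couple to Gq and phospholipase C. Htr4, Htr6 and Htr7 couple to Gs and raise cyclic AMP, and Htr3a is the subunit of a cation channel of cortical interneurons. During the first postnatal days, serotonin also shapes the sensory maps of the cortex, and thalamic sensory neurons transiently hold the transporter.

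Each pup was sequenced to between 30549126 and 48711134 reads assigned to genes, and ChR2-flfl replicate 3 was the library at the lower end. Avil itself separated the genotypes, with 0.825 to 1.46 normalized reads (CPM scaled with TMM factors) in ChR2-flfl and 37.3 to 46.4 in Avil-ChR2. These are values of the cortex itself, and whether channelrhodopsin-2 was expressed there was not tested here. All 7 markers of cortex neurons had values in every pup, and their summed level was 1197 to 1314 in ChR2-flfl and 1263 to 1359 in Avil-ChR2. Of these markers, Slc17a7, the vesicular glutamate transporter of cortical neurons, was called as higher in Avil-ChR2 at an unadjusted p under 0.05 (log2 difference 0.11, limma unadjusted p = 0.0304, adjusted p = 0.884). It was the 1 called of the 7 markers, where 5.41% of all genes were called by that rule. Avil-ChR2 replicate 4 is female in the labels but male in the study's list of pups, and its Ddx3y level of 54.7 lay in the range of the males of that list (50.7 to 73.4) and not of the females (1.71 to 2.57). Its Tsix level of 0.523 likewise lay in the range of the males (0.166 to 0.66) and not of the females (242 to 932). Both genes thus mark this pup as male. Overlapping entries were mostly not filled side by side. Of 5866 entries lying inside a longer entry, 94.4% were empty in all 16 pups, against 13.6% of the 22239 entries that overlapped no other. Xist had a value in 2 pups, and its antisense partner Tsix had 242 to 932 normalized reads in the females of the list. Expression of overlapping genes on opposite strands could therefore not be told apart. In the list, this limit holds for Htr1b, Htr3a, Htr4 and Slc6a4. Their entries share 623, 7055, 35046 and 4568 bp with an entry on the opposite strand. For Htr4 and Slc6a4, that other entry was empty in all pups. The sex-linked genes Ddx3y, Xist and Tsix were chosen after their values had been seen.

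The upstream sequences of Htr1f and Htr2c are shown because the genotype comparison turned on Htr1f, and because Htr2c, with Slc6a4, spread most between pups. Both are the 250 bases before the RefSeq start on GRCm38.p6, written 5′ to 3′ on the strand of the gene, with CG dinucleotides in capitals. Htr1f lies on the minus strand at chr16:65105785-65106034 and Htr2c on the plus strand at chrX:146962263-146962512.
Htr1f: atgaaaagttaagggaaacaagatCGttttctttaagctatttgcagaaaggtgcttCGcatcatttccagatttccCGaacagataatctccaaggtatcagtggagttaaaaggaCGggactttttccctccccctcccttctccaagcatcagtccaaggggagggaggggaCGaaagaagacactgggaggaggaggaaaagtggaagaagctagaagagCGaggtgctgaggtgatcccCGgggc
Htr2c: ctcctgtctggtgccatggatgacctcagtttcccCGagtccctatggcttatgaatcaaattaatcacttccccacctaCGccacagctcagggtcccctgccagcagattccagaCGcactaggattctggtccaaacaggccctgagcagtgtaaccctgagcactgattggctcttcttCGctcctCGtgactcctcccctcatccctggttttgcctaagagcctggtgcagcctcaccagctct
The Htr1f window held 7 CG dinucleotides and the Htr2c window 5, where the median of 32851 such windows was 6. Windows of 8 of the 10 genes were examined, and 1 of these genes had 2 of them, which made 9 windows. Htr3a and Htr4 were not among the genes examined. Over the 9 windows, the count of CG dinucleotides ran from 4 for Htr2a to 41 for Htr7, with 18 for Slc6a4. None of the 9 contained TATAAA on either strand, against 12.4% of all windows. This is a description of the letters in these windows only.

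All 10 genes had values in all 16 pups and passed the filter on low values. In the limma fit, 2 of 21183 genes differed between the genotypes at a Benjamini-Hochberg adjusted p under 0.05 (0.00944%), and none of them was a serotonin receptor or the transporter. At an unadjusted p under 0.05, 1 of the 10 genes was called, Htr1f, which was lower in Avil-ChR2. Of all genes tested, 5.41% were called by that rule, and 3.46% were called as lower, so that 1 of 10 lies near the background. The genotypes overlapped for each of the 10 genes, and 0.0283% of all genes had groups that did not overlap. The point estimates were above 0 for Htr1b, Htr2a and Htr2c and below 0 for the other 7 genes. Their median log2 difference was -0.04, where the median of all genes tested was 0.00. In whole cortex, fewer cells of a type and less RNA per cell cannot be told apart.

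**Figure D1:**
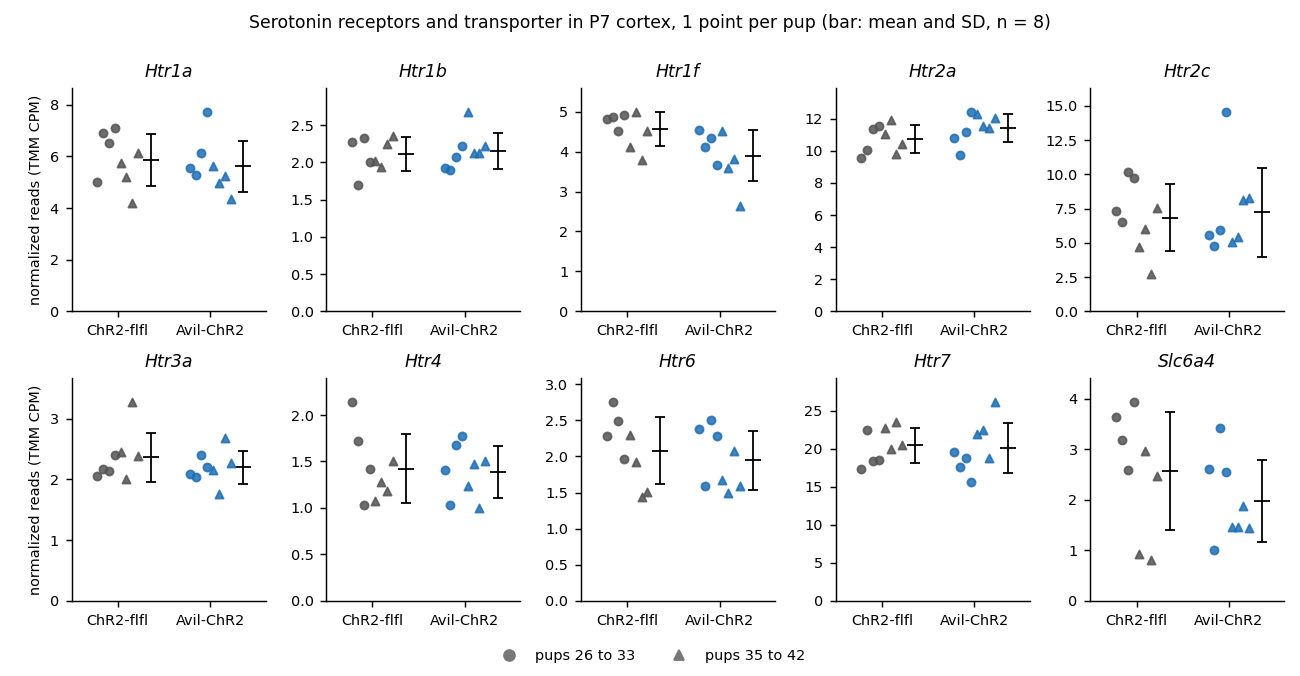
Normalized reads (TMM-scaled CPM, linear axes from 0) of the 9 receptors and Slc6a4 in each pup, ChR2-flfl in grey and Avil-ChR2 in blue, with circles for pups 26 to 33, triangles for pups 35 to 42 and bars for the mean and SD of 8 pups. The genotypes overlapped for all 10 genes, and Htr1f in Avil-ChR2 reached down to 2.63 below the lowest ChR2-flfl pup at 3.80.

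Among the receptors that couple to Gi/o, Htr1f (gene ID 15557, GRCm38 chr16:64922423-65105784, minus strand) is a receptor whose agonists are used against migraine. Its normalized reads in ChR2-flfl were 3.80 at the lowest, 4.67 at the median and 4.99 at the highest. In Avil-ChR2 they were 2.63, 3.96 and 4.54. The genotypes overlapped, but 3 Avil-ChR2 pups lay below the lowest ChR2-flfl pup and 4 ChR2-flfl pups above the highest Avil-ChR2 pup, and 8 of 8 Avil-ChR2 pups lay below the ChR2-flfl mean. The means were 4.57 ± 0.424 in ChR2-flfl and 3.90 ± 0.629 in Avil-ChR2 (SD, n = 8 each). The log2 difference was -0.24 (SE 0.10, 95% interval -0.45 to -0.03), which is a ratio of 0.846 (0.734 to 0.976). The limma p was 0.0241 without adjustment and 0.849 after Benjamini-Hochberg adjustment over all genes, and a two-sided exact permutation test over the 16 pups gave p = 0.0239. Htr1f therefore did not pass the adjusted test.

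The pup numbers form a run from 26 to 33 and another from 35 to 42, each with 4 pups per genotype. What separates these runs is not given in the sources used here. In the first run, the log2 difference of Htr1f was -0.20 (limma unadjusted p = 0.0471), and it was the 1 gene of the list called there, where 3.17% of all genes were called. In the second run it was -0.28 (limma unadjusted p = 0.101), and 0 of the 10 genes were called, where 5.47% of all genes were. The runs differed by -0.07 (SE 0.19) in a test of the difference itself (limma unadjusted p = 0.702). This test called 0 of the 10 genes at an unadjusted p under 0.05 and 3.04% of all genes. When Avil-ChR2 replicate 8, the lowest pup, was left out, the log2 difference was -0.16 (limma unadjusted p = 0.0489). This pup also had the second lowest mean of 8 markers of deep-layer projection neurons among the 16 pups. It was the lowest pup for 2 of these 8 markers, Foxp2 (13.1 normalized reads) and Tle4 (41.6), whereas ChR2-flfl replicate 7 was the lowest for 4 of them.

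Htr1a (gene ID 15550, chr13:105443693-105448133, plus strand) is the somatodendritic autoreceptor of raphe neurons and a receptor of cortical pyramidal cells. It had 4.19, 5.93 and 7.09 normalized reads (lowest, median and highest) in ChR2-flfl and 4.36, 5.41 and 7.72 in Avil-ChR2. The groups covered nearly the same range, with 1 Avil-ChR2 pup above the highest ChR2-flfl pup. Its log2 difference was -0.06 (SE 0.11, 95% interval -0.29 to 0.18, limma unadjusted p = 0.606).

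Htr1b (gene ID 15551) is the receptor of axon terminals, including those of thalamocortical axons. Its normalized reads were 1.70, 2.13 and 2.36 (lowest, median and highest) in ChR2-flfl and 1.89, 2.13 and 2.68 in Avil-ChR2. The groups had the same median, and the log2 difference was 0.03 (SE 0.09, 95% interval -0.16 to 0.22, limma unadjusted p = 0.71). These values are uncertain. The entry covers chr9:81631392-81632552 on the minus strand, which is 1161 bp, whereas the GENCODE gene runs from 81628291 to 81633828. Of these 1161 bp, 623 are shared with D430036J16Rik on the opposite strand, an entry with 6.83 to 9.25 normalized reads that is named here because of this overlap.

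Htr2a (gene ID 15558, chr14:74640840-74706859, plus strand) is the receptor of cortical pyramidal cells on which classical hallucinogens act. The pups had 9.56, 10.8 and 11.9 normalized reads (lowest, median and highest) in ChR2-flfl and 9.74, 11.5 and 12.4 in Avil-ChR2. Of 8 Avil-ChR2 pups, 7 lay above the ChR2-flfl mean and 3 above the highest ChR2-flfl pup, but the lowest values of the groups were alike. The log2 difference was 0.09 (SE 0.06, 95% interval -0.03 to 0.21, limma unadjusted p = 0.121). Without Avil-ChR2 replicate 2, the pup with the lowest value of its group, it was 0.13 (limma unadjusted p = 0.031).

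Htr2c (gene ID 15560, chrX:146962513-147197277, plus strand) is known for its high expression in choroid plexus and its editing of the transcript. Its normalized reads were 2.76, 6.94 and 10.2 (lowest, median and highest) in ChR2-flfl and 4.80, 5.74 and 14.6 in Avil-ChR2. The highest value was that of Avil-ChR2 replicate 4, the pup whose sex differs between the sources, and the other 7 pups of its group stayed within the range of ChR2-flfl. The log2 difference was 0.08 (SE 0.24, 95% interval -0.43 to 0.59, limma unadjusted p = 0.749), an interval that spans ratios from 0.742 to 1.51. It was -0.08 without Avil-ChR2 replicate 4 and -0.09 without ChR2-flfl replicate 7, the lowest pup. By run of pups, it was -0.26 in the first and 0.42 in the second, and the runs differed by 0.68 (SE 0.44, limma unadjusted p = 0.143).

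Since Htr2c marks choroid plexus, which can stay attached to a dissected cortex, its level was set against that tissue's markers. Of 10 choroid plexus markers, 7 passed the filter, and the defining ones were near 0, with at most 1.19 normalized reads of Ttr, 0.104 of Folr1 and 0.103 of Otx2. Kcnj13 was empty in all pups, but its entry lies inside that of Gigyf2, so that its level could not be read from this table. The summed level of the list was 71.9 to 108 in ChR2-flfl and 80.1 to 119 in Avil-ChR2, of which Enpp2 made up 66.3 to 111. Ttr was higher in Avil-ChR2 at these low levels (log2 difference 1.33, SE 0.63, limma unadjusted p = 0.0491, adjusted p = 0.911), but it had a value in 14 of 16 pups only, and missing values were set to the log2 floor of -5. It was the 1 called of the 7 markers at an unadjusted p under 0.05, where 5.41% of all genes were called. Over the 16 pups, Htr2c and the mean of the 7 markers had Pearson's r = 0.0962 (permutation p = 0.722) and Spearman's rho = 0.00 (permutation p = 1), and without the 2 pups farthest from the marker median r was 0.348 (permutation p = 0.223). Within the genotypes, r was 0.0595 in ChR2-flfl and 0.0848 in Avil-ChR2, and within the runs -0.0865 and 0.334. Kcne2, at 0.083 to 0.392 normalized reads, and Ttr weigh in the marker mean as much as Enpp2. These correlations therefore could not show how much choroid plexus was attached, which was not tested.

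Htr3a (gene ID 15561, chr9:48899213-48911151, minus strand) marks the interneurons that arise in the caudal ganglionic eminence (CGE). It was measured at 2.00, 2.28 and 3.28 normalized reads (lowest, median and highest) in ChR2-flfl and 1.76, 2.18 and 2.68 in Avil-ChR2. All but the highest ChR2-flfl pup, replicate 7, lay within the range of Avil-ChR2. For Htr3a the log2 difference was -0.10 (SE 0.10, 95% interval -0.31 to 0.12, limma unadjusted p = 0.372). All 11 markers of CGE-derived interneurons passed the filter, 4 with a higher and 7 with a lower mean in Avil-ChR2, and 1 of them was called at an unadjusted p under 0.05, Reln, which was lower (log2 difference -0.14, limma unadjusted p = 0.0407, adjusted p = 0.908). Of all genes, 5.41% were called by that rule, so that 1 of 11 lies near the background. Reln encodes the extracellular matrix protein reelin. Their summed level was 495 to 621 in ChR2-flfl and 460 to 593 in Avil-ChR2. Htr3a and the mean of these markers had r = 0.389 (permutation p = 0.136) and rho = 0.359 (permutation p = 0.173) over 16 pups, and r fell to 0.15 (permutation p = 0.611) without the 2 pups farthest from the marker median.

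The Gs-coupled receptors gave no call. Htr4 (gene ID 15562, chr18:62322160-62498026, plus strand), with 32 to 104 reads per pup the gene with the fewest reads of the list, had 1.03, 1.35 and 2.14 normalized reads (lowest, median and highest) in ChR2-flfl and 1.00, 1.44 and 1.78 in Avil-ChR2. The groups covered one another, and the log2 difference was -0.02 (SE 0.16, 95% interval -0.35 to 0.31, limma unadjusted p = 0.902). Htr6 (gene ID 15565, chr4:139059705-139075519, minus strand), a receptor found almost only in brain, had 1.43, 2.12 and 2.76 in ChR2-flfl and 1.49, 1.87 and 2.51 in Avil-ChR2. Its groups overlapped likewise, with a log2 difference of -0.09 (SE 0.15, 95% interval -0.40 to 0.22, limma unadjusted p = 0.542).

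Htr7 (gene ID 15566, chr19:35958415-36058286, minus strand) had the most reads of the list. Its normalized reads were 17.4, 20.3 and 23.5 (lowest, median and highest) in ChR2-flfl and 15.6, 19.2 and 26.2 in Avil-ChR2. The Avil-ChR2 pups spread wider on both sides, with 1 pup below and 1 above the range of ChR2-flfl. For Htr7 the log2 difference was -0.03 (SE 0.09, 95% interval -0.21 to 0.15, limma unadjusted p = 0.729), so that ratios outside 0.863 to 1.11 lay outside the interval.

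Slc6a4 (gene ID 15567, chr11:76998466-77032345, plus strand) clears serotonin from the extracellular space and is the target of selective serotonin reuptake inhibitors. Its normalized reads were 0.81, 2.78 and 3.94 (lowest, median and highest) in ChR2-flfl and 1.01, 1.68 and 3.42 in Avil-ChR2. The lowest 2 of all 16 pups were ChR2-flfl pups, replicates 5 and 7, while the other 6 ChR2-flfl pups lay between 2.48 and 3.94. For Slc6a4 the log2 difference was -0.29 (SE 0.32, 95% interval -0.96 to 0.38, limma unadjusted p = 0.383), the widest interval of the list. It was -0.59 in the first run of pups (limma unadjusted p = 0.077) and 0.02 in the second (limma unadjusted p = 0.96), and the runs differed by 0.61 (SE 0.54, limma unadjusted p = 0.269).

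**Figure D2:**
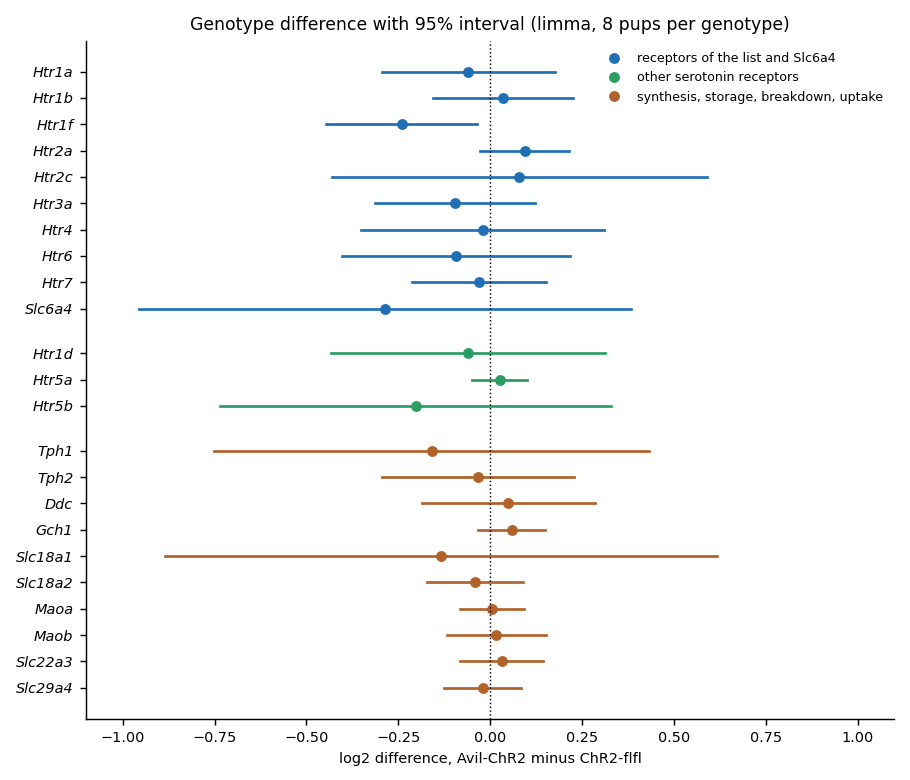
Log2 difference (Avil-ChR2 minus ChR2-flfl, points) with its 95% interval (lines, limma, 8 pups per genotype) for the 10 genes, for 3 other serotonin receptors and for 10 genes of serotonin synthesis, storage, breakdown and uptake. The interval of Htr1f, from -0.45 to -0.03, was the only one of the plot that did not include 0.

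The levels of the 10 genes were compared per length, as normalized reads per kb of the longest annotated transcript in GENCODE. Htr7 was highest with 6.43 ± 0.865 per kb (SD, n = 16 pups), followed by Htr2a (1.97 ± 0.165), Htr1f (1.64 ± 0.241), Htr2c (1.44 ± 0.571) and Htr1a (1.28 ± 0.217). The lower end was made up of Htr3a (1.09 ± 0.165), Htr6 (0.86 ± 0.183), Slc6a4 (0.814 ± 0.362), Htr1b (0.451 ± 0.0485) and Htr4 (0.301 ± 0.0685). Of 9 pairs of neighbours in this order, 6 differed at an adjusted p under 0.05 in a two-sided exact sign-flip permutation test over pups. Htr1f and Htr2c (adjusted exact p = 0.125), Htr2c and Htr1a (0.406) and Htr6 and Slc6a4 (0.22) did not differ beyond their spread. Htr7 was higher than Htr2a in 16 of 16 pups, with a log2 difference of 1.70 (adjusted exact p = 0.000275).

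The order depended on the transcript length that was assumed. With the median instead of the longest annotated transcript, Htr2c stood next to Htr7 (2.30 per kb) and Htr4 stood above Slc6a4 and Htr1b (1.06 per kb). With the span of its entry, Htr1b stood just below Htr2a (1.84 per kb). That entry covers 1161 bp, whereas the longest transcript of Htr1b has 4724 bases. The low place of Htr1b in the first order and its tests against its neighbours there are therefore uncertain. Htr7 was highest under each of the 3 lengths.

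**Figure D3:**
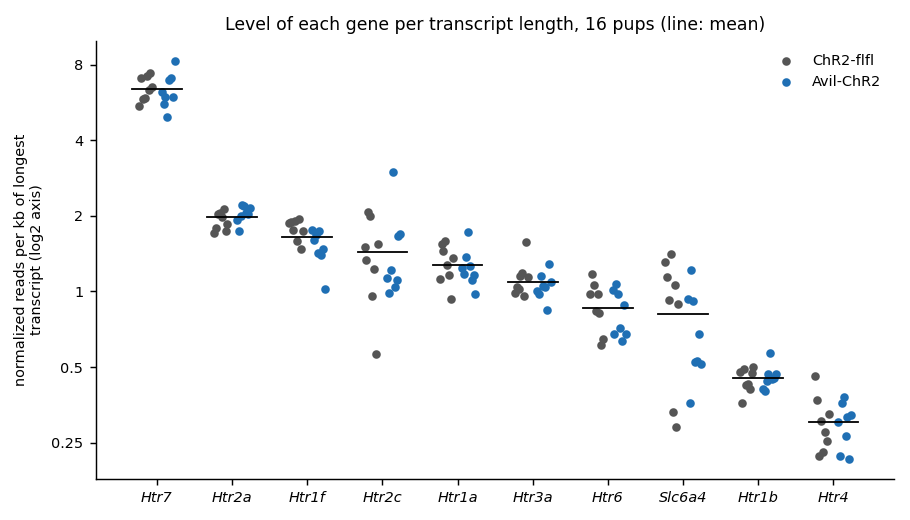
Normalized reads per kb of the longest transcript (log2 axis) for each of the 10 genes in order of their mean (line), with 1 point per pup, ChR2-flfl in grey and Avil-ChR2 in blue. Htr7 lay above all other genes in every pup, and Slc6a4 and Htr2c spread the most.

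Slc6a4 and Htr2c differed most between pups of the same genotype. The SD of the log2 values within a genotype was 0.75 for Slc6a4 and 0.57 for Htr2c, whereas it was 0.12 for Htr2a and 0.16 for Htr1b and at most 0.33 for the other genes. From the lowest to the highest pup, the level rose 4.87-fold for Slc6a4 and 5.27-fold for Htr2c, but 1.30-fold for Htr2a. The SD of Slc6a4 was larger than that of 98.2% of 1256 genes whose mean log2 level was within 0.5, and that of Htr2c was larger than 99.1% of 1574 such genes.

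The genes whose levels over the 16 pups were most like those of Slc6a4, after centring within genotype and among 15136 genes, were Dmrt2 (r = 0.957), Crym (0.926) and Tshz3 (0.916). For Htr2c they were Efnb3 (r = 0.938), Cdh13 (0.934) and Spon1 (0.929), and for Htr1f Rxfp1 (r = 0.936), Hs3st4 (0.934) and Ttk (0.912). For Htr7 they were Nek6 (r = 0.937), Cpne8 (0.904) and Vgll3 (0.892), and for Htr6 Sirt2 (0.93), Tomm40 (0.914) and Aldh1l1 (0.895). Htr1a was most like Laptm4b (r = 0.882), Htr1b like Mapk12 (0.854), Htr2a like Mtrf1 (0.846), Htr4 like Ss18l1 (0.824) and Htr3a like Adck1 (0.823). These r values describe the pups at hand and are the highest of many.

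Crym belongs to the list of 8 markers of deep-layer projection neurons. After this had been seen, Slc6a4 and Htr1f were set against the mean log2 level of that list. Since the list was picked from these values, the correlations are a description, given without a test. For Slc6a4, Pearson's r was 0.937 and Spearman's rho 0.938 over 16 pups, and without Crym, over the remaining 7 markers, r was 0.888 and rho 0.882. With all 8 markers, r was 0.973 without the 2 pups farthest from the marker median, 0.969 within ChR2-flfl and 0.877 within Avil-ChR2, and 0.949 and 0.922 within the runs of pups. The 2 ChR2-flfl pups with the lowest Slc6a4 had the lowest and the third lowest mean of these markers.

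For Htr1f, r was 0.65 and rho 0.784 over 16 pups, and without Crym r was 0.72 and rho 0.779. With all 8 markers, r was 0.563 without the 2 pups farthest from the marker median. Within ChR2-flfl r was 0.953 and within Avil-ChR2 0.654. Within the runs of pups, r was 0.474 and 0.592, and rho was 0.69 and 0.766. The 8 markers themselves showed no call between the genotypes at an unadjusted p under 0.05, where 5.41% of all genes were called. Of the markers, 3 had a higher and 5 a lower mean in Avil-ChR2, with a median log2 difference of -0.01. Their summed level was 399 to 565 in ChR2-flfl and 455 to 563 in Avil-ChR2. With the mean of these markers as a covariate, the log2 difference of Htr1f was -0.21 and that of Slc6a4 -0.14. These 2 values are a description as well, since the list was picked from these data. Whether the dissected pieces held different shares of deep layers was not tested.

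**Figure D4:**
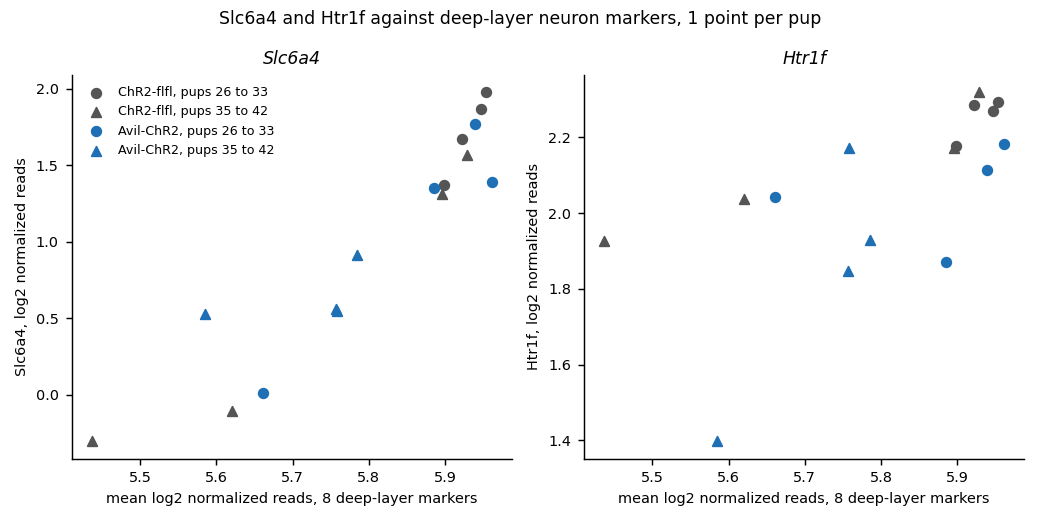
Log2 normalized reads of Slc6a4 (left) and Htr1f (right) against the mean log2 normalized reads of 8 markers of deep-layer projection neurons, with 1 point per pup, ChR2-flfl in grey, Avil-ChR2 in blue, circles for pups 26 to 33 and triangles for pups 35 to 42. Slc6a4 rose with the markers in both genotypes (r = 0.937 over 16 pups). Htr1f had r = 0.65 over 16 pups, and its lowest value was that of an Avil-ChR2 pup with the second lowest marker mean.

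The raphe neurons that make serotonin send axons but have no cell bodies in the cortex. Of 6 raphe markers, Fev was empty in all pups and En1 had at most 0.082 normalized reads, and Tph2, the neuronal enzyme of serotonin synthesis, had 1.24 to 2.09. Their summed level, Slc6a4 included, was at most 30.8 in ChR2-flfl and 28.9 in Avil-ChR2, most of it from the vesicular monoamine transporter Slc18a2 (18.6 to 24.8).

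The labels count Avil-ChR2 replicate 4 as female, against its Ddx3y and Tsix levels. In the fit with the sexes of the labels, the genotype difference of no gene of the list depended on sex at an unadjusted p under 0.05, where 4.31% of all genes did. With the sexes of the study's list of pups, in which Avil-ChR2 replicate 4 is male, 2 of 10 did, Slc6a4 and Htr2c, against 6.23% of all genes, and no gene of the table passed the adjusted test with either source. For Slc6a4, the log2 difference was then -0.93 in females and 0.36 in males, and the difference between the sexes was 1.30 (SE 0.59, limma unadjusted p = 0.0404, adjusted p = 0.799). With the sexes of the labels it was 1.07 (SE 0.61, limma unadjusted p = 0.0954).

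Female ChR2-flfl pups of that list had 3.17 ± 0.572 normalized reads of Slc6a4 (SD, n = 4) and female Avil-ChR2 pups 1.83 ± 1.08. The male pups had 1.97 ± 1.36 and 2.13 ± 0.551. Females of the genotypes overlapped in 1 pup, an Avil-ChR2 female with 3.42, and the males overlapped throughout. For Htr2c, the log2 difference was -0.42 in females and 0.58 in males, and the difference between the sexes was 1.00 (SE 0.46, limma unadjusted p = 0.0416, adjusted p = 0.799) against 0.43 (SE 0.48, limma unadjusted p = 0.376) with the sexes of the labels. The pup whose sex differs between the sources was the one with the highest Htr2c. The sexes were spread unevenly over the runs, with 3 of 4 ChR2-flfl females in pups 26 to 33 and 3 of 4 ChR2-flfl males in pups 35 to 42, so that sex and run can hardly be told apart in ChR2-flfl.

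**Figure D5:**
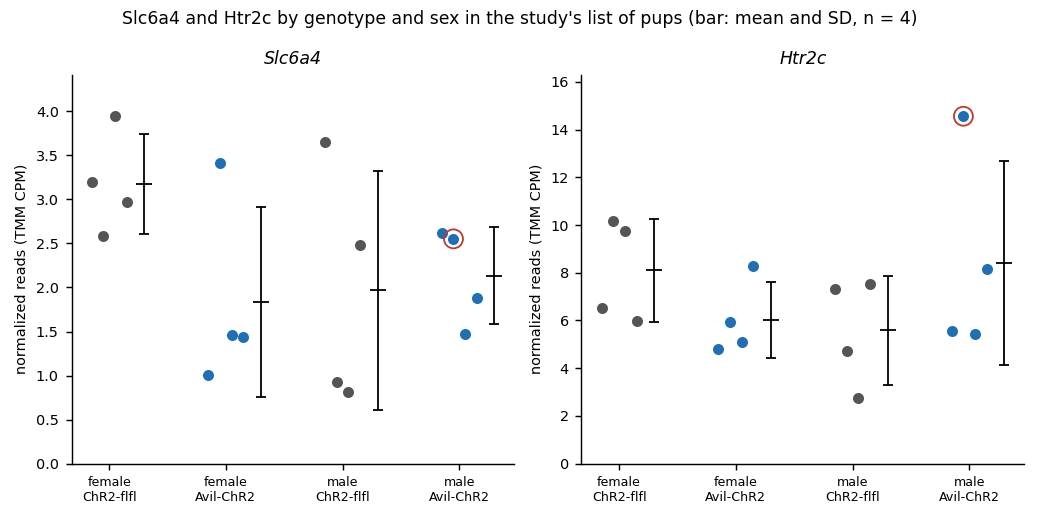
Normalized reads (linear axes from 0) of Slc6a4 (left) and Htr2c (right) by genotype and by sex in the study's list of pups, 1 point per pup with bars for the mean and SD of 4 pups. The red ring marks Avil-ChR2 replicate 4, which is female in the labels and had the highest Htr2c value, 14.6.

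Of 5 further serotonin receptors, 3 passed the filter and none was called. Htr5a, a Gi/o-coupled receptor of the brain, had a higher mean of normalized reads in each genotype than any gene of the list. It had 23.3 to 27.3 in ChR2-flfl and 23.4 to 26.8 in Avil-ChR2, and its log2 difference was 0.03 (SE 0.04, 95% interval -0.05 to 0.10). In Avil-ChR2 replicate 8, however, Htr7 (26.2) was above Htr5a (23.4). Htr1d had 0.762 to 2.17 normalized reads and Htr5b 0.145 to 0.495 over both genotypes. Htr3b, the partner subunit of Htr3a, reached at most 0.102 and did not pass the filter. Htr2b was empty in all 16 pups, but its entry lies inside that of Psmd1 on the other strand (176 to 192 normalized reads), and its level could not be read from this table.

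The genes that make, store, degrade and take up serotonin apart from Slc6a4 gave no call either. All 10 of them passed the filter, 5 with a higher and 5 with a lower mean in Avil-ChR2, with a median log2 difference of -0.01. Maoa, the monoamine oxidase that prefers serotonin, had 88.1 ± 7.00 normalized reads in ChR2-flfl and 88.3 ± 3.21 in Avil-ChR2 (SD, n = 8 each). Slc18a2, which loads serotonin into vesicles, had 21.9 ± 2.40 and 21.2 ± 1.64. Ddc, which makes serotonin from its direct precursor, had 2.35 ± 0.468 and 2.39 ± 0.151.

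Of 22 genes of receptor transduction, 21 passed the filter and 1 was called at an unadjusted p under 0.05, Kcnj6, which was lower in Avil-ChR2. This share lies near the 5.41% of all genes called by that rule. Kcnj6 encodes a subunit of the potassium channels that Gi/o-coupled receptors open. It had 39.0 ± 4.40 normalized reads in ChR2-flfl and 35.0 ± 2.19 in Avil-ChR2 (SD, n = 8 each), with a log2 difference of -0.15 (SE 0.06, limma unadjusted p = 0.0191, adjusted p = 0.841). Its entry shares 4754 bp with LOC105246171 on the opposite strand, which had 33.9 to 52.6 normalized reads. The partner subunits Kcnj3 and Kcnj9 had log2 differences of -0.02 (SE 0.04) and 0.04 (SE 0.06). Over the 21 genes the median log2 difference was 0.00, with 11 above and 10 below 0. Gnaz was empty in all pups, and its entry lies inside that of Rsph14.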

How the data were processed

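Cortices of 8 Avil-ChR2 and 8 ChR2-flfl pups were analyzed by RNAseq, and groups were taken from the sample labels. From stranded mRNA libraries, the authors mapped reads with SeqMan NGen 17 to the mm10 (GRCm38) genome, counted them by gene in ArrayStar 17 and used edgeR for CPM with TMM factors. The deposited CPM are on a linear scale. How reads of overlapping genes were assigned is not given in the sources used here. Values of up to 20000 reads were whole multiples of 1 read (100% within 0.05), which gave 30549126 to 48711134 reads per pup. Labels call the pups biological replicates.

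Values were log2 transformed without a pseudocount. Missing values and values below -5 were set to -5, and 21183 genes with at least 12 of 16 pups above -5 were kept. Genotypes were compared with lmFit and eBayes (trend, no covariate) of limma 3.58.1 under R 4.3.3, with Benjamini-Hochberg adjustment. Exact permutation tests used all 12870 splits of the pups for the genotypes and all sign flips over pups for neighbouring levels. Correlations were tested with 100000 permutations. Scripts were tested on simulated data. Transcript lengths were those of GENCODE M21. The members and lists were chosen with earlier results of these data known. Named are all members, genes of the pathway and marker lists, Avil, and for each member the 3 genes most like it by Pearson's r (mean log2 at least 0). Others were named after their values were seen.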

Additional observations from a re-analysis of the deposited data

Results flagged for a closer look

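In 20 groups (10 genes in 2 genotypes of 8 pups each), 3 groups held a pup whose log2 value was farther from the rest than Dixon's 95% critical value allows, where chance flags about 1 in 20 groups. Htr1b in Avil-ChR2 replicate 5 was 2.68 normalized reads, with the other 7 pups of the group between 1.89 and 2.22. Htr1f in Avil-ChR2 replicate 8 was 2.63, with the others between 3.60 and 4.54. Htr3a in ChR2-flfl replicate 7 was 3.28, with the others between 2.00 and 2.46. The gaps took 0.537 (Htr1b), 0.573 (Htr1f) and 0.586 (Htr3a) of the range on the log2 scale.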

How the results depend on the processing

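Htr1a, Htr3a and Htr6 kept their sign and stayed without a call in the 16 fits that left out 1 pup and in the 13 other alternatives. Htr1f kept its sign throughout and lost its call only in pups 35 to 42 alone. The count of genes at an adjusted p under 0.05 was 1 in place of 2 with the replicate block and in either run of pups alone, and 1 to 2 when each pup was left out. It was 3 with the run of pup numbers as a covariate and 3 with the deep-layer mean as a covariate. The replicate block changed no call of the 10 genes. Same-numbered pups deviated together with r from -0.34 to 0.39, and 1 of 8 correlated best with its own number. Genes of the list at an unadjusted p under 0.05 numbered 0 in pups 35 to 42 alone and 1 to 2 when each pup was left out (Htr2a without Avil-ChR2 replicate 2). Signs turned in pups 26 to 33 alone for Htr1b (-0.026) and Htr2c (-0.26), in the second run alone for Htr4 (0.041), Htr7 (0.034) and Slc6a4 (0.019), and with the deep-layer mean as a covariate, an alternative chosen after seeing the data, for Htr4 (0.012). With each pup left out, the log2 difference ranged from -0.011 to 0.060 for Htr1b, -0.094 to 0.17 for Htr2c, -0.080 to 0.071 for Htr4, -0.087 to 0.019 for Htr7, -0.13 to -0.01 for Htr1a, -0.14 to -0.03 for Htr3a, -0.16 to -0.03 for Htr6, -0.50 to -0.16 for Slc6a4, -0.28 to -0.16 for Htr1f and 0.07 to 0.13 for Htr2a. Of 9 neighbours in the level order, 6 differed, but 3 with the median transcript and 0 in the 8 ChR2-flfl pups alone, where Htr7 still lay above Htr2a in 8 of 8 pups (log2 difference 1.76, smallest p that 8 pups allow, exact p = 0.00781, adjusted p = 0.0703). The correlation of Htr2c with choroid plexus markers was -0.0865 in pups 26 to 33, and that of Htr1f with deep-layer markers 0.654 within Avil-ChR2, 0.474 in the first run of pups and 0.592 in the second. The cause of these changes was not tested, although the runs and genotypes alone hold fewer pups. The planned edgeR and DESeq2 fits were not run. limma-voom on the recovered reads, added after seeing the data, gave -0.24 for Htr1f (unadjusted p = 0.023). Htr4 and Slc6a4 rested on as few as 32 and 39 reads in a pup.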
